A study of Mus musculus with 42 samples.

Results

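The AP-1 and EGR immediate early genes described here are 10 genes, Fos, Fosl2, Jun, Junb, Jund, Egr1, Egr2, Ier2, Ier3 and Ier5, taken by symbol from a gene count table of mouse bone-marrow-derived macrophages (BMDM) that holds 37310 genes. All 10 were present in the table, and all 10 passed the filter on low counts that left 11624 genes for testing. BMDM are macrophages grown in culture from bone marrow, here in medium conditioned by L929 cells, a mouse fibroblast line. RNA-seq was carried out on 42 libraries in 14 groups of 3: WT cells and cells labelled KO, each as Control at 0, 2 and 24 h, with palmitate at 2 and 24 h, and with LPS at 2 and 24 h. LPS is a bacterial lipopolysaccharide sensed by Toll-like receptor 4, and palmitate is a saturated fatty acid used to model lipid overload.

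The KO mice carried a floxed Irf5 gene, which encodes the transcription factor IRF5, and Cre recombinase inserted into Lyz2 (LysM-Cre). By the names in the study, the floxed line was C57BL/6 and the Cre line was C57BL/6 with a part from another strain. Deletion in this model depends on Lyz2 activity in each myeloid cell, and Cre replaces Lyz2 sequence on its allele. The mice were male and between 7 and 10 weeks of age when experiments began. The sources used here do not say whether the WT mice carried the floxed allele or Cre, whether Control cells received the vehicle of palmitate, or whether the 3 libraries of a group came from separate animals or cultures, so p-values measure the spread between libraries, which may be technical. The table's columns name the group but not the replicate, and libraries are numbered here in the order of the table.

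Immediate early genes are transcribed within minutes of a stimulus from factors already present in the cell, and most of their mRNAs are short lived. AP-1 is a dimer of basic leucine zipper proteins: Jun, Junb and Jund can pair with each other or with Fos family proteins such as Fos and Fosl2, while Fos family proteins need a Jun partner. Egr1 and Egr2 are zinc finger transcription factors, and in macrophages the AP-1 and EGR proteins bind near many inflammatory and differentiation genes. Ier2, Ier3 and Ier5 are named for their early induction; Ier2 and Ier5 belong to the same protein family, to which Ier3 is unrelated.

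Libraries held between 2848793 and 7743442 counts, with a median of 5625399, so that 3 counts corresponded to 0.387 to 1.05 CPM (the count of a gene scaled to the library total). Irf5 itself was not lower in the libraries labelled KO: it ranged from 267 to 430 CPM there and from 210 to 389 CPM in WT, and in 6 of 7 conditions every KO-labelled library lay above every WT library. A count over the whole gene cannot show whether the floxed exons were missing. Lyz2 was lower in every KO-labelled library than in every WT library in all 7 conditions, with log2 differences between -0.51 and -1.11. Genotype comparisons therefore refer to the libraries as labelled. The 7 macrophage markers summed to between 5130 and 8790 CPM in every library. Markers of granulocytes and their precursors summed to 42 to 203 CPM in KO-labelled and 19.3 to 83.7 CPM in WT libraries, and fibroblast markers to 0 to 306 CPM in KO-labelled and 0 to 58.7 CPM in WT libraries. Their part in the results on the 10 genes was not tested, beyond refits without libraries above 100 CPM of fibroblast markers. In bulk RNA, fewer cells that express a gene and less of its RNA per cell cannot be told apart.

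Promoter sequence is shown for 5 of the 10 genes, 3 whose counts rose by over 2-fold with LPS at 2 h in both genotypes (Junb, Egr2, Ier3) and 2 whose counts did not rise (Fos, Jun). Each window runs from 250 bases before to 50 bases after an annotated transcription start, 5′ to 3′ on the strand of the gene, from RefSeq on GRCm38.p6. Windows were used for 8 of the 10 genes, with none for Egr1 or Ier2. Junb is on the minus strand (chr8:84978699-84978998), Egr2 on the plus strand (chr10:67537619-67537918, 1 of 5 windows for this gene), Ier3 on the plus strand (chr17:35821463-35821762), Fos on the plus strand (chr12:85473640-85473939) and Jun on the minus strand (chr4:95052173-95052472). Capitals mark matches on either strand to a CArG box (bound by serum response factor), the cAMP response element TGACGTCA or its core TGACG alone, the AP-1 element TGACTCA or TGAGTCA, the EGR sites GCGTGGGCG and GCGGGGGCG, and the NF-kappaB site.
Junb: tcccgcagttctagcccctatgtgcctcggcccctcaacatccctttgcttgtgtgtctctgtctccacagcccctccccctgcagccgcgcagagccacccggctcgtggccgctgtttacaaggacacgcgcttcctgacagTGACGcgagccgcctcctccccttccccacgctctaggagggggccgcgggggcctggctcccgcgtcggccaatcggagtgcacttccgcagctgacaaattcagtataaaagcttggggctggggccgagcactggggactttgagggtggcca
Egr2: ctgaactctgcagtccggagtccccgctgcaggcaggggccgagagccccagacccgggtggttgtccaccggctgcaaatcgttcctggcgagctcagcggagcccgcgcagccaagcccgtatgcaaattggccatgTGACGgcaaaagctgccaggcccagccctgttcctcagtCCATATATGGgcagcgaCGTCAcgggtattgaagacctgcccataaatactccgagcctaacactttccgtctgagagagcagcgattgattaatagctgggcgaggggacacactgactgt
Ier3: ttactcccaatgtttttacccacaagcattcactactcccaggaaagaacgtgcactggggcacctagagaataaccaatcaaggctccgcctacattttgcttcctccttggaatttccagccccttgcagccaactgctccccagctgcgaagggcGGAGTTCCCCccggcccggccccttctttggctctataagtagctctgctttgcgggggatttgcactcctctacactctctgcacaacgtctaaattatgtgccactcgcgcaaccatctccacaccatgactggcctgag
Fos: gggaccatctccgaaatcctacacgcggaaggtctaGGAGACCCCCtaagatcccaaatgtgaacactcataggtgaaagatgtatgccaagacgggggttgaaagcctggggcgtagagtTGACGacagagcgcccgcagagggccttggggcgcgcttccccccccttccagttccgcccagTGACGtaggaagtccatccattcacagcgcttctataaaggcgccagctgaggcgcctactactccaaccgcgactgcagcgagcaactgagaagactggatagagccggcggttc
Jun: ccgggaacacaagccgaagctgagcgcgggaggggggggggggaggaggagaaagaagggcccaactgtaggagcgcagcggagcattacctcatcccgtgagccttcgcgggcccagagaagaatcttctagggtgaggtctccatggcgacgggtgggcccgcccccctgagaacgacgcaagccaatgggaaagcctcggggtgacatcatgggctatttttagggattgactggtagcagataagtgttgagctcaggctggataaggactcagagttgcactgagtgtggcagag

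The Egr2 window held a CArG box from base -72 to base -63, counted from the start site, with a TGACG core on each side of it. A CArG box was present in 1.63% of all 32851 windows of the same length and, with any window of a gene counted, in 1 of the 8 genes. The Egr2 window at chr10:67535249-67535548 held neither a CArG box nor a TGACG core. The TGACG core, held by 20.8% of windows, was found in Fos at bases -129 to -125 and -66 to -62, in Junb at -106 to -102, and in Egr2. NF-kappaB sites, held by 8.46% of windows, were found in Ier3 at bases -92 to -83 and in Fos at -214 to -205, and also in a window of Fosl2 and in another window of Egr2. The capitals therefore fall in windows of genes that rose with LPS and in that of Fos, which did not. Fosl2 held an EGR site, present in 3.47% of windows, at bases -79 to -71. The full cAMP response element (1.79% of windows) and the AP-1 element (5.2%) were not found in any window of the 8 genes, and none of these motifs was found in the windows of Jun, Jund or Ier5. The Jund window (chr8:70697489-70697788) ended before the Jund gene as positioned here, from base 70698949, and so did not cover that start. These matches describe letters in a short window and say nothing on binding.

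The plot of levels by library shows the 10 genes over all 14 groups. Levels are CPM scaled by the trimmed mean of M-values (TMM). Between genes, levels were set against each other only per kilobase of exon. At 0 h in WT, Jund (100 ± 4.18 CPM per kb, SD, n = 3) and Jun (70.6 ± 3.43) led, and Egr1 was lowest (1.09 ± 0.191). Egr2, Fosl2, Ier3 and Ier2 followed each other between 6.49 and 4.55 CPM per kb with library ranges that overlapped from each gene to the next. After 2 h of LPS, Junb led at 275 ± 16.8 CPM per kb, above Jund at 138 ± 8.89 and Jun at 78.4 ± 3.36, and Egr1 had reached 24 ± 2.93. Neighbours from Ier3 down to Egr1 in that order again overlapped in their library ranges.

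**Figure D1:**
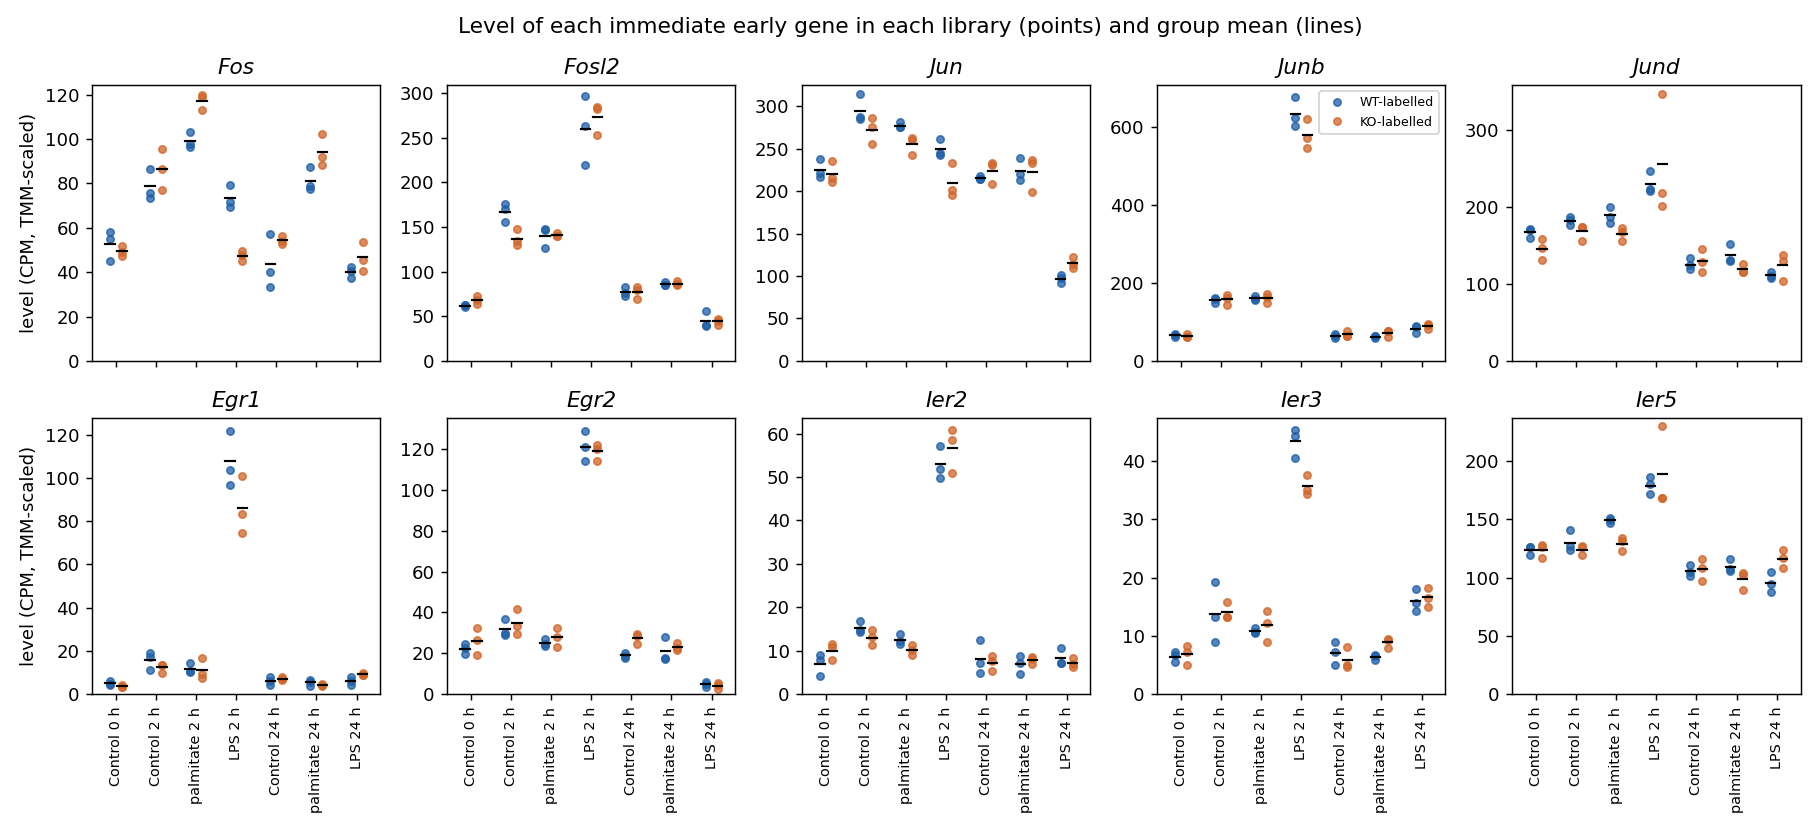
Level of each gene (y axis, TMM-scaled CPM from 0) in each of 42 libraries (points) by condition (x axis), WT in blue and KO-labelled in orange, with group means as black lines. Group means of Fosl2, Junb, Jund, Egr1, Egr2, Ier2, Ier3 and Ier5 are highest at LPS 2 h in both genotypes. Those of Fos are highest with palmitate at 2 h (up to 120 CPM in a library), where edgeR called no change from Control. A single KO-labelled LPS 2 h library stands above the others for Jund (346 CPM) and Ier5 (230 CPM).

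Control cells at 2 h against 0 h address how far the genes move in culture without LPS or palmitate, with the handling of these cells not known. In WT, 8 of the 10 genes rose and none fell (all but Jund and Ier5), where 8.41% of all genes tested rose. In KO-labelled cells 6 of 10 rose (Fos, Fosl2, Jun, Junb, Egr1 and Ier3), where 6.5% of all genes rose. Egr1 stood at 4.52, 5.84 and 4.23 CPM in the WT libraries at 0 h and at 17.2, 19 and 11.1 CPM at 2 h, a log2 change of 1.69 ± 0.25 (SE, adjusted p = 5.94e-07). Every WT library at 2 h lay above every library at 0 h. In KO-labelled libraries Egr1 went from 3.14, 3.94 and 3.24 CPM to 13.4, 13.6 and 9.84 CPM (log2 change 1.82 ± 0.28, adjusted p = 2.15e-06).

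Fosl2, a Fos family subunit (chr5:32135801-32157842, plus strand), moved from 62.1, 62.4 and 60.6 CPM to 176, 170 and 155 CPM in WT, 2.7-fold. In KO-labelled libraries it moved from 68.3, 64 and 72.5 CPM to 130, 134 and 148 CPM, 2.01-fold. Both times are separate ranges in each genotype. Junb rose 2.4-fold in WT and 2.46-fold in KO-labelled cells, from group means of 65.2 ± 3.09 and 63.9 ± 3.81 CPM to 156 ± 7.41 and 158 ± 14.4 CPM (SD, n = 3). Ier3, an early response gene linked to cell survival (chr17:35821684-35822923, plus strand), rose 2.14-fold and 2.08-fold. Fos rose 1.49-fold in WT and 1.75-fold in KO-labelled cells, and Jun 1.31-fold and 1.24-fold.

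Ier2 (chr8:84661331-84662852, minus strand), which encodes a nuclear protein, rose 2.16-fold in WT, from 4.16, 7.74 and 8.86 CPM to 16.8, 14.2 and 14.8 CPM. In KO-labelled libraries its values of 10.8, 7.71 and 11.5 CPM at 0 h and 14.7, 13.1 and 11.2 CPM at 2 h overlapped (adjusted p = 0.326). The difference between genotypes in this change was -0.73 ± 0.32 on the log2 scale and did not pass (adjusted p = 0.194). Egr2 rose 1.44-fold in WT (adjusted p = 0.0179), a call lost without WT Control 0 h library 1 (log2 change 0.44) or 3 (0.53) or without WT Control 2 h library 2 (0.42), and its value in KO-labelled cells was 1.32-fold (adjusted p = 0.0885), which passed without KO Control 0 h library 2 (log2 change 0.59, adjusted p = 0.0161). Jund and Ier5 had log2 changes between 0.01 and 0.21 and were not called in either genotype.

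By 24 h most of the Control values had returned to near those at 0 h. In WT, Fosl2 was 1.25-fold higher (adjusted p = 0.0239), where 5.72% of all genes were higher, and Jund, from 170, 171 and 159 CPM to 133, 124 and 119 CPM, was 1.33-fold lower (adjusted p = 0.00655), where 6.42% were lower. In KO-labelled cells Egr1 alone among the 10 was called, 1.98-fold higher (adjusted p = 0.0351), where 3.71% of genes were higher. These calls sat near the threshold: Fosl2 lost its call without any 1 of the WT Control 0 h libraries (log2 change 0.30 to 0.33) or without WT Control 24 h library 2 (0.27), Jund without WT Control 24 h library 3 (-0.36), and Egr1 without KO Control 0 h library 1 or 3 (0.93 and 0.94) or any 1 of the KO Control 24 h libraries (0.90 to 1.07). Fos in WT, uncalled, passed as lower without WT Control 24 h library 2 (log2 change -0.53, adjusted p = 0.00177).

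LPS against Control at 2 h addresses the acute response to a microbial signal. In WT, 8 of the 10 genes rose, where 14% of all genes tested rose, and Jun fell, where 9.1% fell. In KO-labelled cells the same 8 genes (Fosl2, Junb, Jund, Egr1, Egr2, Ier2, Ier3 and Ier5) rose, where 14.7% rose, and Fos and Jun fell, where 9.16% fell. The median log2 change of the 10 genes in WT was 1.15, beside -0.01 for all genes tested.

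Egr1 had the highest fold change of the 10 genes in both genotypes. Egr1, on chromosome 18, which encodes a factor that binds GC-rich sites, stood at 97, 104 and 122 CPM with LPS in WT, against 17.2, 19 and 11.1 CPM in Control, 6.89-fold higher (log2 change 2.79 ± 0.19, adjusted p = 1.57e-17). In KO-labelled libraries it stood at 101, 83.3 and 74.8 CPM against 13.4, 13.6 and 9.84 CPM, 6.98-fold higher. No LPS library overlapped a Control library. Egr2 (chr10:67535475-67542188, plus strand), its relative with roles in myeloid differentiation, reached 121, 114 and 129 CPM in WT from 28.8, 36.6 and 29.9 CPM, 3.81-fold. In KO-labelled libraries it reached 120, 122 and 114 CPM from 29.5, 41.4 and 33.1 CPM, 3.43-fold.

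Among the AP-1 subunits, Junb (chr8:84974484-84978718, minus strand) rose most. Its values with LPS were 601, 676 and 622 CPM in WT against 148, 161 and 159 CPM in Control (4.05-fold, adjusted p = 4.77e-27), and 620, 546 and 571 CPM in KO-labelled cells against 170, 161 and 142 CPM (3.67-fold, adjusted p = 9.65e-26). Exons of Prdx2 lie on the other strand over part of Junb, and Prdx2 had 19052 counts in all libraries together. The strand setting of the counting was not stated, so reads in the shared stretch cannot be assigned with certainty. Fosl2 reached 219, 296 and 263 CPM in WT (1.57-fold over Control) and 253, 284 and 282 CPM in KO-labelled cells (2-fold). The genotype difference in this Fosl2 effect was 0.35 ± 0.12 on the log2 scale (adjusted p = 0.451).

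Jund (chr8:70698949-70700616, plus strand), the subunit usually present in resting cells, rose least among the AP-1 genes that rose. Its WT libraries were at 220, 247 and 223 CPM with LPS against 187, 177 and 183 CPM (1.27-fold, adjusted p = 0.0148), which did not pass without WT Control 2 h library 2 (log2 change 0.31) or WT LPS 2 h library 2 (0.28). In KO-labelled cells it was at 346, 201 and 218 CPM against 174, 156 and 174 CPM (log2 change 0.57 ± 0.11). The value of 346 came from the library with the lowest total count, 2848793, and without it the change was 0.30 (adjusted p = 0.0097). An antisense gene, Gm11175, overlaps Jund, with 150 counts in all. Ier5 (chr1:155096361-155099636, minus strand) rose 1.37-fold in WT and 1.5-fold in KO-labelled cells, and the same library gave its highest value, 230 CPM against 168 CPM in each of the other 2 libraries.

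Jun (chr4:95049034-95052222, minus strand) fell in both genotypes, to 262, 243 and 245 CPM from 287, 314 and 285 CPM in WT (log2 change -0.24 ± 0.07, adjusted p = 0.00567) and to 233, 195 and 201 CPM from 275, 256 and 286 CPM in KO-labelled cells (-0.39 ± 0.07, adjusted p = 1.61e-05). The groups did not overlap in either genotype. In WT the call was lost without WT Control 2 h library 2 (log2 change -0.20, adjusted p = 0.0539). The antisense gene Junos overlaps Jun, with 453 counts in all. Against 0 h rather than the 2 h Control, the Jun means with LPS lay on either side of the starting value: 225 ± 10.9 CPM at 0 h and 250 ± 10.7 with LPS in WT, and 220 ± 12.6 and 210 ± 20.4 in KO-labelled cells.

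Fos (chr12:85473890-85477273, plus strand), the AP-1 subunit that gave the family its name, did not rise either. With LPS it was at 69.4, 79.3 and 71.7 CPM in WT against 75.7, 73.6 and 86.4 CPM in Control, ranges that overlapped (log2 change -0.09 ± 0.11, adjusted p = 0.613). In KO-labelled cells it was at 47.8, 45.2 and 49.3 CPM with LPS against 95.5, 77 and 86.4 CPM in Control, 1.82-fold lower (log2 change -0.86 ± 0.12, adjusted p = 3.52e-08), and all LPS libraries lay below all Control libraries. Fibroblast markers summed to 72.3 to 118 CPM in these Control and 0.759 to 152 CPM in these LPS libraries. Without libraries above 100 CPM the Fos change was -0.75 (edgeR, adjusted p = 0.000119). The libraries kept were at 77.3 and 72.3 CPM of these markers in Control and at 0.759 and 3.03 CPM with LPS. Since the groups kept did not overlap in these markers, this refit could not test their part in the Fos change. The 2 h time point gives no value for earlier times.

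Ier2 rose 3.47-fold with LPS in WT, from 16.8, 14.2 and 14.8 CPM to 49.7, 57.1 and 51.8 CPM, and 4.37-fold in KO-labelled cells. Ier3 rose 3.16-fold in WT, to 45.4, 44.4 and 40.5 CPM, and 2.53-fold in KO-labelled cells, to 37.6, 34.4 and 35 CPM. LPS and Control ranges of both genes were separate in both genotypes.

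**Figure D2:**
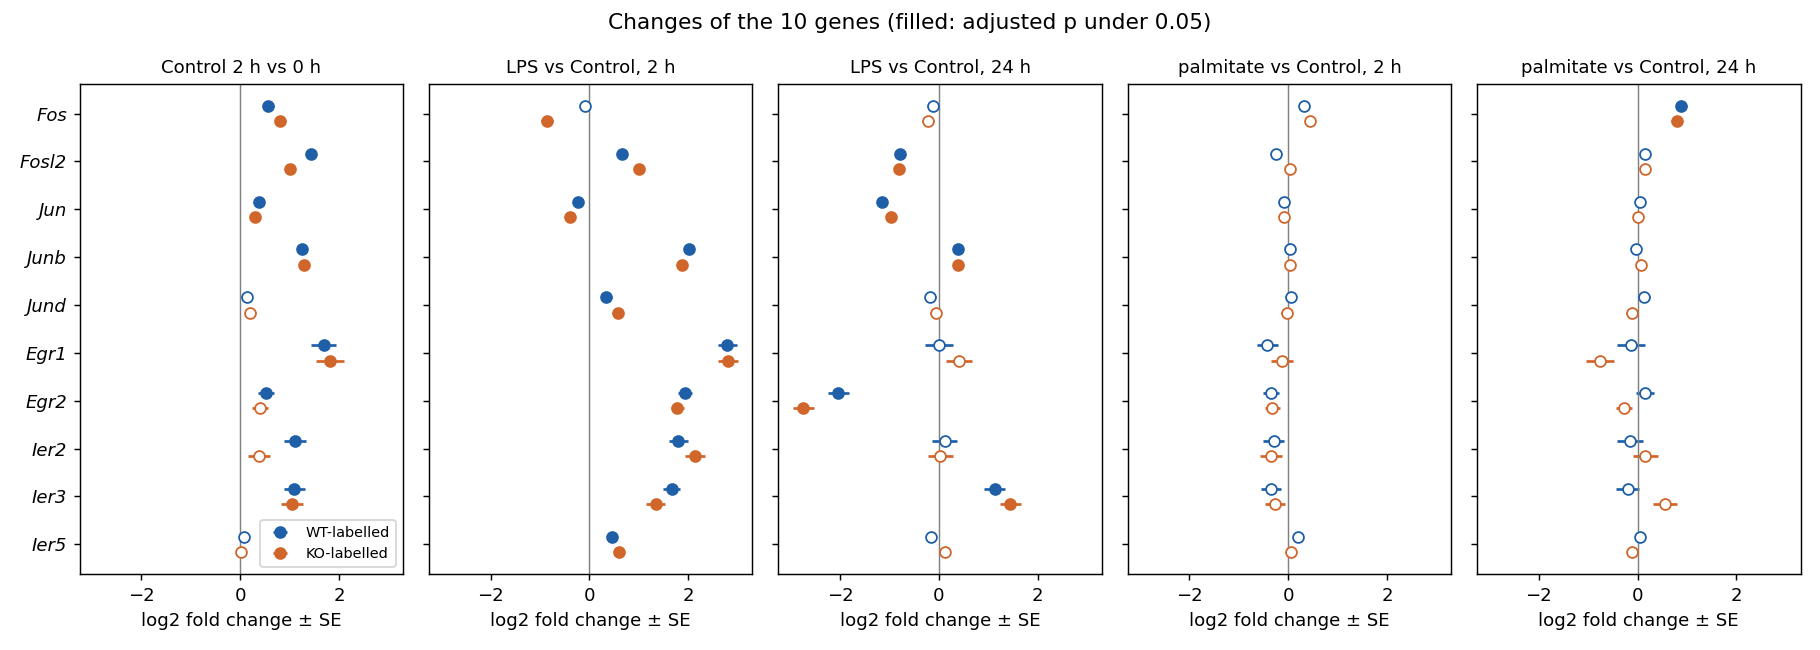
Log2 fold change with its standard error (x axis) of the 10 genes (y axis) in 5 comparisons, WT in blue and KO-labelled in orange, with filled points for an adjusted p under 0.05. The LPS 2 h panel shows 8 genes to the right of 0 in both genotypes, and the palmitate panels show filled points for Fos at 24 h only.

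LPS against Control at 24 h shows which changes outlast the acute phase. In both genotypes the same 5 genes were called: Junb and Ier3 were higher, and Fosl2, Jun and Egr2 were lower. In WT 19.6% of all genes were higher and 19.9% lower, and in KO-labelled cells 19.9% and 21%, so the share of the 10 genes called was near that of all genes. Ier3 stood at 15.7, 18 and 14.2 CPM in WT against 5.05, 8.91 and 7.28 CPM in Control (2.19-fold) and at 18.2, 14.9 and 16.5 CPM in KO-labelled cells against 4.97, 4.56 and 8.07 CPM (2.74-fold). Junb was 1.31-fold and 1.3-fold higher.

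Egr2 showed the largest fall. Its WT libraries were at 4.62, 5.96 and 3.37 CPM with LPS against 17.7, 20.2 and 18.6 CPM in Control (log2 change -2.03 ± 0.22, adjusted p = 7.43e-11). In KO-labelled libraries they were at 5.37, 2.43 and 4.25 CPM against 24.3, 29.3 and 28.6 CPM (-2.74 ± 0.21, adjusted p = 1.28e-15). The ranges were apart in both genotypes, and the difference between them of -0.71 ± 0.33 did not pass (adjusted p = 0.924). Jun fell to 96.8 ± 4.71 CPM from 216 ± 2.52 CPM in WT (2.22-fold) and to 115 ± 6.16 CPM from 224 ± 13.6 CPM in KO-labelled cells (1.94-fold). Fosl2 fell 1.72-fold and 1.74-fold. Egr1, at 5.97 ± 1.91 CPM in WT and 9.1 ± 0.396 CPM in KO-labelled cells, did not differ from Control by the test, and neither did Ier2, Jund, Ier5 or Fos. Fos (log2 change -0.12 in WT and -0.22 in KO-labelled cells) passed as lower in WT without WT Control 24 h library 3 (-0.31, adjusted p = 0.0448) and in KO-labelled cells without KO LPS 24 h library 3 (-0.33, adjusted p = 0.0403), and its WT value was 0.15 without WT Control 24 h library 2.

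The LPS effect at 24 h was set against that at 2 h in a test of the difference itself. In WT, 8 of the 10 genes had a lower LPS effect at 24 h, where 18.1% of all genes did, the exceptions being Fos (-0.03 ± 0.16) and Ier3 (-0.53 ± 0.29, adjusted p = 0.156). In KO-labelled cells 8 were lower, where 19% of all genes were, and Fos was higher (0.65 ± 0.16, adjusted p = 0.00152), where 14.3% of genes were. The difference was largest for Egr2, at -3.96 ± 0.26 in WT and -4.52 ± 0.26 in KO-labelled cells, followed by Egr1 at -2.79 ± 0.35 and -2.4 ± 0.33. For Jund and Ier5 in KO-labelled cells the difference depended on KO LPS 2 h library 1, falling in size from -0.64 to -0.36 and from -0.46 to -0.30 without it. Ier3 in WT, uncalled in full, passed without WT Control 2 h library 2 (-0.85, adjusted p = 0.0186).

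Palmitate is compared with the same Control libraries as LPS, and the values of the comparisons are therefore given side by side only. At 2 h none of the 10 genes was called by edgeR, where 0.275% of all genes in WT and 0.112% in KO-labelled cells were. At an unadjusted p under 0.05 there were 4 genes in WT and 2 in KO-labelled cells, where 7.45% and 4.61% of all genes were, and DESeq2 called 0 and 1. Fos was at 97.5, 96.5 and 103 CPM with palmitate in WT against 75.7, 73.6 and 86.4 CPM in Control (1.26-fold, adjusted p = 0.291), and at 113, 119 and 120 CPM against 95.5, 77 and 86.4 CPM in KO-labelled cells (1.36-fold, adjusted p = 0.0615). The ranges did not overlap in either genotype although neither comparison passed. Fos passed in KO-labelled cells with DESeq2 (adjusted p = 0.0187), with all genes kept (0.00131) and with only the 2 groups fitted (0.0039), and in WT with only the 2 groups fitted (0.027). Egr1, Egr2, Ier2 and Ier3 had log2 values between -0.13 and -0.42 over both genotypes, none called.

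At 24 h Fos was the only gene of the 10 called with palmitate, and it rose in both genotypes. It stood at 87.2, 77.6 and 78.7 CPM in WT against 40.1, 57.3 and 33.5 CPM in Control (log2 change 0.89 ± 0.11, adjusted p = 5.19e-07), where 0.671% of all genes rose. In KO-labelled cells it stood at 88.3, 91.8 and 102 CPM against 53.9, 52.7 and 56.2 CPM (0.79 ± 0.11, adjusted p = 3.38e-06), where 0.637% rose. Every palmitate library lay above every Control library. In KO-labelled cells fibroblast markers summed to 39.5 to 133 CPM in Control and 0 to 7.32 CPM with palmitate, and in WT to 2.74 to 45.2 and 0.346 to 10.2 CPM. Without the Control library above 100 CPM the Fos change in KO-labelled cells was 0.79 (edgeR, adjusted p = 0.000122). The Control libraries kept, at 47.9 and 39.5 CPM of these markers, still lay above all palmitate libraries. This refit therefore could not test the part of fibroblast markers in the Fos change. The other 9 genes had adjusted p-values of at least 0.381, with Egr1 in KO-labelled cells, at 4.02 ± 0.538 CPM against 6.97 ± 0.881 CPM, and Ier3 in KO-labelled cells, at 8.85 ± 0.862 against 5.86 ± 1.92 CPM, furthest from 0. The library ranges of Egr1 there were separate (3.44 to 4.51 against 6.23 to 7.95 CPM), and those of Ier3 overlapped. By edgeR at an unadjusted p under 0.05 there were 1 of the 10 genes in WT and 3 in KO-labelled cells, where 9.02% and 7.97% of all genes were.

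The 5 AP-1 subunit genes among the 10 were described by the share of each in their summed level per exon length. These shares leave out 11 other AP-1 and related leucine zipper genes. Not divided by length, those summed to 505 to 534 CPM in WT libraries at 0 h and 996 to 1050 CPM with LPS at 2 h. At 0 h in WT, Jund held 43.9% ± 1.02 (SD, n = 3), Jun 31% ± 0.577, Junb 12.5% ± 0.88, Fos 9.85% ± 1.17 and Fosl2 2.8% ± 0.0539. With LPS at 2 h, Junb held 50% ± 0.47 in WT and 48.8% ± 3.14 in KO-labelled cells, against 21.2% ± 0.79 and 22.4% ± 2.14 in Control at 2 h. The library ranges of Junb were 49.5 to 50.4% and 20.3 to 21.7% in WT, far apart. The share of Fos was 5.68% ± 0.101 with LPS and 10.4% ± 0.906 in Control in WT, and 3.93% ± 0.455 and 12% ± 0.746 in KO-labelled cells. With palmitate at 24 h Fos held 15.5% ± 1.38 in WT and 18.1% ± 1.61 in KO-labelled cells, against 9.37% ± 2.3 and 11.1% ± 1.01 in Control. These are shares of mRNA, and protein was not measured here.

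The summed level of these 5 AP-1 genes in WT was 228 ± 7.15 CPM per kb at 0 h. At 2 h it was 320 ± 3.37 in Control and 549 ± 29 with LPS. At 24 h it was 197 ± 10.3 in Control and 155 ± 5.42 with LPS, the lowest of the WT groups. KO-labelled cells ran from 212 ± 13.3 at 0 h to 519 ± 68.5 with LPS at 2 h and 174 ± 11.9 with LPS at 24 h. Jund regained the largest share with LPS at 24 h, 43% ± 0.312 in WT and 42.7% ± 3.45 in KO-labelled cells.

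**Figure D3:**
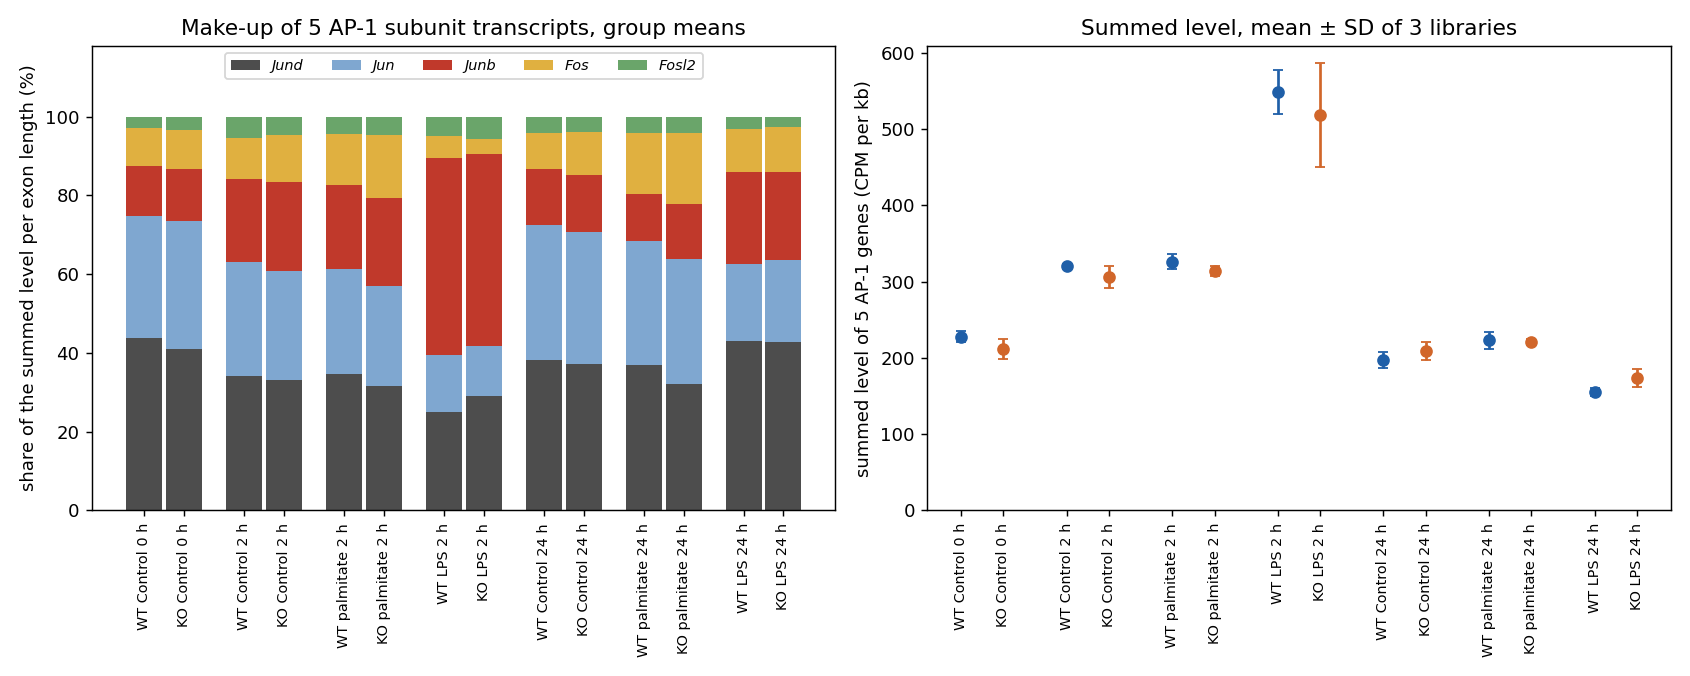
Left, mean share (y axis, %) of each of 5 AP-1 subunit genes in their summed level per exon length for the 14 groups (x axis). Right, summed level (y axis, CPM per kb) as mean ± SD of 3 libraries, WT in blue and KO-labelled in orange. Junb takes 50% of the WT sum at LPS 2 h, when the sum is 549 CPM per kb.

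KO-labelled libraries were compared with WT libraries in each of the 7 conditions, the comparison the study was built on. Of the 10 genes, only Fos at LPS 2 h was called, where 0.465% of all genes were. Fos stood at 47.8, 45.2 and 49.3 CPM in KO-labelled and 69.4, 79.3 and 71.7 CPM in WT libraries, 1.56-fold lower (log2 difference -0.64 ± 0.12, adjusted p = 0.00254). All KO-labelled libraries lay below all WT libraries, and the call was kept without any 1 of the 6 libraries (log2 difference -0.58 to -0.67, adjusted p up to 0.0407). Fibroblast markers reached 152 CPM in 1 of these KO-labelled libraries and at most 0.716 CPM in the WT libraries, and granulocyte markers summed to 118 to 203 CPM against 45.4 to 65.9 CPM. Without libraries above 100 CPM of fibroblast markers the Fos difference was -0.60 (adjusted p = 0.0364).

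The direction of the Fos difference was not the same in all conditions. Fos was at 86.3 ± 9.28 CPM in KO-labelled and 78.6 ± 6.85 CPM in WT libraries in Control at 2 h (adjusted p = 0.747), and at 117 ± 3.52 and 98.9 ± 3.27 CPM with palmitate at 2 h (adjusted p = 0.432). The genotype difference in the LPS effect on Fos at 2 h was -0.77 ± 0.16 and did not pass with edgeR (adjusted p = 0.198). DESeq2 gave -0.77 with an adjusted p of 0.0466, and edgeR with all genes kept gave -0.78 with an adjusted p of 8.75e-05, so the call depended on the fit.

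For the other genes and conditions no genotype difference was called. The share of all genes called was 12.5% in Control at 0 h, 0.49% in Control at 2 h, 0.146% with palmitate at 2 h, 0.12% in Control at 24 h, 0.0688% with palmitate at 24 h and 0.146% with LPS at 24 h. At an unadjusted p under 0.05 there were, in the same order, 1, 1, 2, 2, 3 and 3 of the 10 genes, where 25.1, 10.1, 8.88, 5.05, 7.67 and 9.08% of all genes were. DESeq2 called 0 in each, with an adjusted p for 6 of the 10 genes for LPS at 24 h and for all 10 in the others. Jun at LPS 2 h was nearest to the threshold, at 233, 195 and 201 CPM in KO-labelled and 262, 243 and 245 CPM in WT libraries (log2 difference -0.26 ± 0.07, adjusted p = 0.0923). It passed with DESeq2 (adjusted p = 0.0447) and without KO LPS 2 h library 1 (-0.34, adjusted p = 0.0197). Fos in Control at 24 h passed without WT Control 24 h library 2, whose Fos value of 57.3 CPM lay above the other 2 (log2 difference 0.58 against 0.32 with it).

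**Figure D4:**
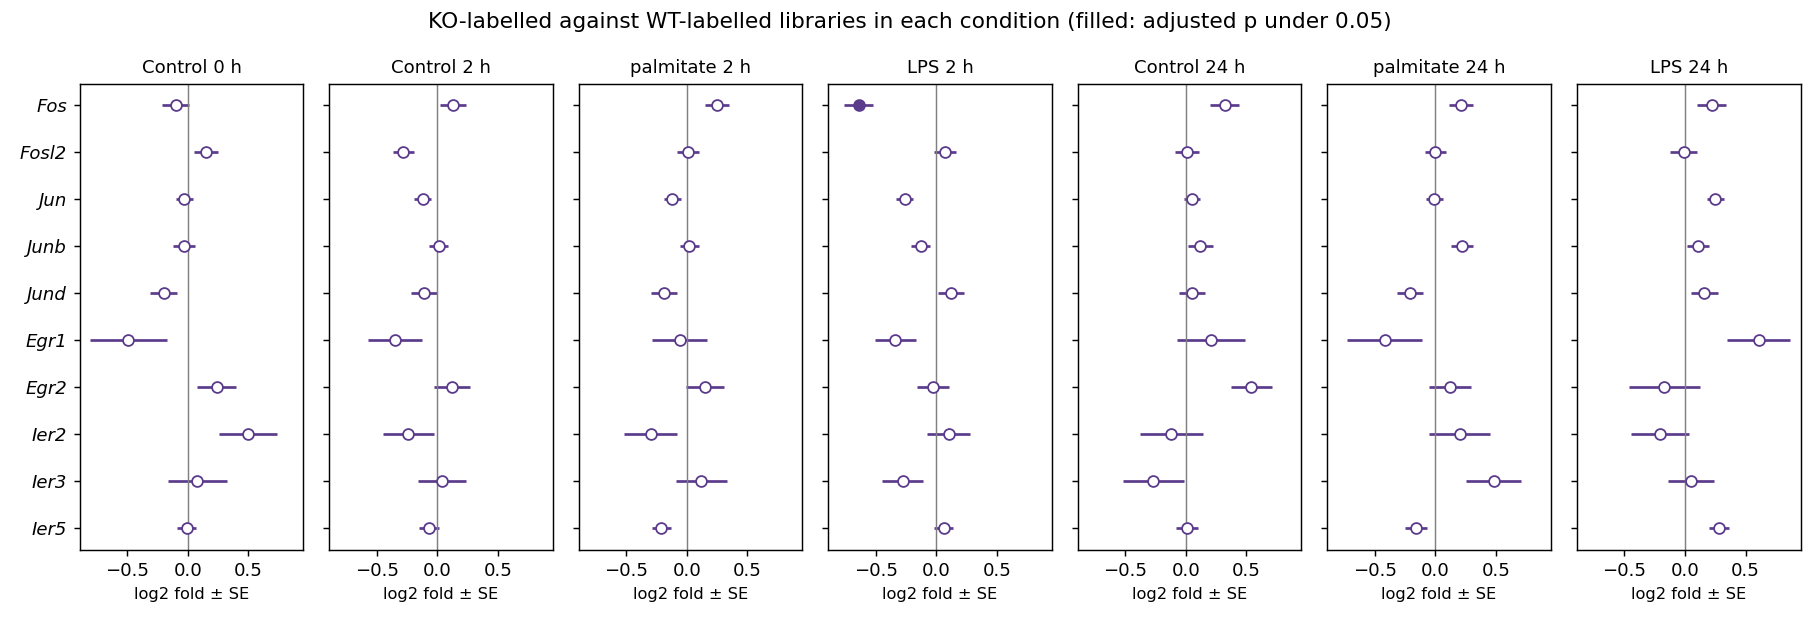
Log2 fold of KO-labelled over WT libraries with its standard error (x axis) for the 10 genes (y axis) in the 7 conditions, filled where the adjusted p is under 0.05. The only filled point is Fos at LPS 2 h, at -0.64.

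The genotype difference in the effect of treatment was called for none of the 10 genes. Over all genes, edgeR called 0% for LPS at 2 h, 0.0086% for LPS at 24 h and 0% for palmitate at 2 and at 24 h. At an unadjusted p under 0.05 the 10 genes gave 2, 2, 1 and 1, where 6.97, 5.4, 4.18 and 3.54% of all genes passed, and DESeq2 called 1, 0, 0 and 0 of them. In the Control cells alone, the change from 0 to 2 h differed between genotypes for Fosl2, -0.43 ± 0.13 on the log2 scale (adjusted p = 0.049), where 4.77% of all genes were called, with group means of 61.7 and 167 CPM in WT and 68.3 and 137 CPM in KO-labelled cells. The call was lost without any 1 of 9 of the 12 libraries in turn, those of WT Control 0 h (-0.41 to -0.43), WT Control 2 h libraries 1 and 2 (-0.40 and -0.42), KO Control 0 h libraries 1 and 3 (-0.43 and -0.38) and KO Control 2 h libraries 1 and 2 (-0.40 and -0.41). Fibroblast markers summed to 42.1 to 69.3 CPM at 0 h and 72.3 to 118 CPM at 2 h in the KO-labelled libraries, and to at most 0.905 and 58.7 CPM in WT. The change from 0 to 24 h gave no call among the 10 genes by edgeR or DESeq2 (1 at an unadjusted p under 0.05, as were 13.9% of all genes), where 1.83% of all genes were called, and Fos passed without WT Control 24 h library 2 (0.67, adjusted p = 0.0213).

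Other genes of the pathway were taken from lists and set beside the 10 genes. Their counts stand against shares of all genes tested that were, at LPS 2 h, 14% higher and 9.1% lower in WT and 14.7% and 9.16% in KO-labelled cells, and, from 0 to 2 h in Control, 8.41% higher and 5.85% lower in WT and 6.5% and 5.59% in KO-labelled cells. Of 11 tested genes for other AP-1 and related leucine zipper subunits, 6 rose and 1 fell with LPS at 2 h in WT, and 6 rose and 2 fell in KO-labelled cells. Maff, a small Maf protein, went from 8.82 to 147 CPM in WT, and Jdp2, a Jun dimerization partner that represses AP-1 sites, from 48.8 to 330 CPM. Atf3 fell from 356 to 311 CPM in WT and from 385 to 270 CPM in KO-labelled cells, and Batf3 fell from 2.84 to 0.969 CPM in KO-labelled cells. In Control cells 4 rose and 2 fell from 0 to 2 h in WT, and 4 rose and none fell in KO-labelled cells. Maff rose there too, from 1.68 to 8.82 CPM in WT, as did Fosb, from 0.166 CPM, below the level of 3 counts in a library, to 3.58 CPM, while Batf and Batf3 fell in WT.

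Of 3 tested relatives and cofactors of the EGR proteins, Nab1, which encodes a corepressor bound by EGR proteins, rose from 189 to 271 CPM with LPS at 2 h in WT, and its relative Nab2 fell from 72.1 to 55.5 CPM. In KO-labelled cells Nab1 and Nab2 moved the same way and Egr3 rose from 3.76 to 9.58 CPM. From 0 to 2 h in Control all 3 rose in WT, among them Egr3 from 0.654 to 5.23 CPM and Nab2 from 59.3 to 72.1 CPM. Of 6 genes for serum response factor and its ternary complex partners, 1 rose with LPS at 2 h in each genotype, near the 14% and 14.7% of all genes that rose. It was Elk3, from 71.6 to 127 CPM in WT and from 78.1 to 129 CPM in KO-labelled cells. From 0 to 2 h in Control, 3 rose in WT, Elk3 and Srf among them, and 2 rose in KO-labelled cells, Elk3 and Mrtfb.

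Of 17 genes of the MAP kinase cascade, which relays the signal to these factors, 6 rose and 1 fell with LPS at 2 h in WT and 8 rose and 1 fell in KO-labelled cells, where 14% and 9.1% of all genes in WT and 14.7% and 9.16% in KO-labelled cells did. Map3k8, the kinase known as Tpl2, rose from 20.4 to 65.6 CPM and Mapkapk2 from 271 to 786 CPM in WT. In KO-labelled cells both rose as well, and Rps6ka1 fell from 139 to 122 CPM. From 0 to 2 h in Control, 2 rose and 1 fell in WT, led by Map2k3, from 59.1 to 129 CPM.

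Of 18 other primary response genes, 13 rose and 3 fell with LPS at 2 h in WT and 12 rose and 3 fell in KO-labelled cells, against the same shares of all genes, with median log2 changes of 1.01 and 0.93 beside -0.01 for all genes. Csrnp1 rose from 7.22 to 139 CPM and Phlda1 from 8.86 to 92.9 CPM in WT, while Ier5l, a relative of Ier5, fell from 12.3 to 0.955 CPM and the clock gene Per1 from 36.2 to 16 CPM. From 0 to 2 h in Control, 11 rose and none fell in WT and 12 rose and 1 fell in KO-labelled cells, where 8.41% and 6.5% of all genes rose. Nr4a3 and Nr4a2, orphan nuclear receptors, rose from 0.656 to 13.9 CPM and from 1.19 to 9.17 CPM in WT, and Btg2 fell from 30.2 to 18.8 CPM in KO-labelled cells. With palmitate at 2 h, 0 of these 18 rose and 1 fell in WT, and none was called in KO-labelled cells, where 0.275% and 0.112% of all genes were called. Of 4 tested heat shock genes, Hspa1a and Hspa1b rose with LPS at 2 h in both genotypes, Hspa1b from 0.919 to 6.6 CPM in WT, and Hsph1 fell in KO-labelled cells, and none was called from 0 to 2 h in Control.

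The genes whose group means followed each of the 10 most closely were named by Pearson's r of log2(CPM + 1) over the 14 groups, a description of points that share Control groups. The closest were Adora2b (0.993) and Maff (0.991) for Junb, Snx18 and AI504432 (0.986 each) for Egr1, Rcan1 (0.989) and Kdm7a (0.987) for Fosl2, and Relb (0.984) and Rnf19b (0.976) for Ier3. They were Iws1 (0.984) and Paf1 (0.983) for Ier2, Sfpq (0.986) and Mki67 (0.982) for Egr2, Qser1 (0.977) and Amz1 (0.974) for Jun, Nr3c1 (0.974) and Gramd1b (0.968) for Jund, and Jund (0.965) and Gramd1b (0.959) for Ier5. Fos had the least close neighbours of the 10, Sec24d (0.866) and Fam126a (0.857). Among the 10 genes themselves, Junb and Egr1 ran at 0.97 and Junb and Ier2 at 0.96, whereas Fos ran at 0.07 with Egr1, 0.21 with Junb and -0.02 with Ier3.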

How the data were processed

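Libraries were made from total RNA with a stranded, ribodepleted low-input kit and sequenced as paired reads. Per the study's methods, the authors aligned reads to mm10 with STAR 2.7.3a, which also made the gene counts; the submitters' processing notes add fastp 0.19.11 and name mm9 beside mm10. The annotation release and the strand setting of the counting are not given in the sources used here. The deposited values are raw counts per Ensembl gene for 37310 genes in 42 libraries, with totals from 2848793 to 7743442. Symbols and positions were matched by Ensembl identifier to a mouse annotation of GRCm38 (32620 identifiers).

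Counts were tested with edgeR 4.0.16 (R 4.3.3), by a quasi-likelihood test on TMM-scaled counts, in 1 model with a mean for each of the 14 groups. Genes were kept by filterByExpr (11624 of 37310), p-values were adjusted by the Benjamini-Hochberg method over all genes tested in each of 27 comparisons, and genes were called at an adjusted p under 0.05. The test was checked on simulated counts. Levels are TMM-scaled CPM, and levels per kb divide by the union of annotated exons. Fold changes are model estimates. Intervals are SD over 3 libraries or SE of the model. Alternatives were RLE scaling, no filter beyond 1 count, a fit of only the groups compared, DESeq2 1.42.0, each library left out, CPM without TMM, and shares without length. An alternative without libraries above 100 CPM of summed fibroblast markers was chosen after seeing the data.

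The 10 genes and the lists were chosen with earlier results of these data known. All 10 genes are named in each kind of comparison. Of each other list, the 2 called genes per direction with the largest change at LPS 2 h or from 0 to 2 h in Control, in WT and in KO-labelled cells where they differ, are named if they reach 1 CPM in a group. Of each gene's likeness, the 2 genes with the highest r and a mean of at least 5 CPM are named. Atf7 was not matched, and 1 gene that the rule names is not reported here. Markers of B cells, T or NK cells, erythroid cells and dendritic cells summed to at most 13, 1.74, 0.519 and 6.95 CPM in any library.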

Additional observations from a re-analysis of the deposited data

Results flagged for a closer look

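By edgeR's test of the difference itself, Fosl2 alone of the 10 genes changed differently between genotypes. Its change from 0 to 2 h in Control cells was smaller in KO-labelled than in WT libraries by -0.43 ± 0.13 on the log2 scale (edgeR, adjusted p = 0.049), with 2.01-fold and 2.7-fold rises, in a comparison where 4.77% of all genes were called. The call was lost without any 1 of 9 of the 12 libraries in turn and without the libraries above 100 CPM of fibroblast markers (-0.39, adjusted p = 0.13). Fos, uncalled by edgeR for the genotype difference in the LPS effect at 2 h (adjusted p = 0.198), was called there by DESeq2 (0.0466) and by edgeR with all genes kept (8.75e-05). For Fosl2 in Control, all 3 KO-labelled libraries at 2 h (130 to 148 CPM) lay below the 3 WT libraries (155 to 176 CPM). At 0 h all 3 KO-labelled libraries lay above for Fosl2 (64 to 72.5 against 60.6 to 62.4 CPM). No test for outlying values was run, since each group has 3 libraries.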

How the results depend on the processing

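Of 67 called pairs of a gene and a comparison, 60 kept their call and direction under every alternative and none changed direction. No paired analysis was possible because the columns of the count table carry no replicate numbers. The number of the 10 genes called changed by more than 1.5 times in these cases. For palmitate at 2 h it went from 0 to 1 (Fos) in WT with only the groups compared, and from 0 to 1 in KO-labelled cells with all genes kept, with only the groups compared and with DESeq2. For KO against WT it went from 0 to 1 (Fosl2) in Control at 2 h with only the groups compared, and from 1 to 2 (Jun added) at LPS 2 h with DESeq2. For the genotype difference in the LPS effect at 2 h it went from 0 to 1 (Fos) with all genes kept and with DESeq2. Without the libraries above 100 CPM of fibroblast markers it went from 1 to 0 for Control 24 h against 0 h in KO-labelled cells (Egr1, log2 change 0.90) and for the genotype difference in the Control 2 h change (Fosl2, -0.39). Leaving out each library gave counts of 1 to 2 for Control 24 h against 0 h in WT, 0 to 1 for the same in KO-labelled cells, 1 to 2 for KO against WT at LPS 2 h, 0 to 1 for KO against WT in Control at 24 h, and 0 to 1 for the genotype difference of the Control change at 2 h and at 24 h. The uncalled Fos value for LPS at 24 h in WT, -0.12, ranged from -0.31 (called) to 0.15 when single libraries were left out, the latter without WT Control 24 h library 2; the cause was not tested. Without TMM the WT LPS 2 h means were lower, for example 564 CPM for Junb and 65.5 CPM for Fos, and without division by length Junb held 43.8% of the 5 AP-1 genes at LPS 2 h in WT. At these depths Egr1, Ier2 and Ier3 rested on as few as 16, 23 and 18 counts in a library, and Egr2 on 13.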
